A study of Mus musculus with 5 samples.

Results

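The respiratory chain and ATP synthase genes described here are the 93 of 15180 protein-coding genes in the deposited table whose symbols begin with Nduf followed by a, b, c, s or v and a digit, Sdha to Sdhd, Uqcr, Cox4 to Cox8, Atp5 or mt-, with Ndufa4l2 left out. Of these, 80 are encoded in the nucleus and 13 in the mitochondrial genome. The rule reads the symbols and no measured value. The pattern leaves out Ndufab1 and Cyc1, which are also subunits and are given further on.

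Podoplanin-positive (PDPN+) cells that were CD45-, EpCAM-, E-cadherin- and DAPI- had been sorted from pancreatic tumours of KPC mice, a model of pancreatic cancer. Tumour-bearing mice had received vehicle (3 libraries) or LDE225 (sonidegib, an inhibitor of the Hedgehog signal transducer Smoothened; 2 libraries) for 14 days by oral gavage, started after tumour formation. Both groups share the KPC tumour model; age, sex and strain were not analysed here. Ribosomal RNA was depleted from total RNA, and directional libraries were sequenced in paired ends. Whether different libraries stand for different mice is not stated in the labels. The p-values therefore measure only the spread between these libraries, which may be technical.

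Oxidative phosphorylation joins 4 electron-transferring complexes (I to IV) to ATP synthase (complex V) in the inner mitochondrial membrane. Complexes I, III and IV pump protons as electrons pass from NADH or succinate to oxygen, and complex V uses the returning protons to make ATP. Complex II is wholly encoded in the nucleus, while every other complex also holds subunits made from mitochondrial DNA, so its assembly needs transcripts from both genomes.

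The reads recovered from the deposited values numbered 7578822 to 11194991 in vehicle and 13671817 to 14083280.0 in LDE225, all on the genes of the table. Every pair of libraries differed by more than counting noise. Collagen and other fibroblast markers were abundant: Col1a1, a chain of type I collagen, ranged from 200497 to 440668 normalised counts, and Pdpn from 2123 to 5183. RNA of genes used to remove cells was also present, with Epcam between 71.5 and 687, Cdh1 (E-cadherin) between 191 and 739 and Ptprc (CD45) between 8.69 and 104 normalised counts.

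The nuclear-encoded transcripts as a group stood lower in the LDE225 libraries, while those from mitochondrial DNA did not move together. The summed normalised counts of the 80 nuclear members were 41854, 49191 and 46832 in vehicle 1, 2 and 3, against 38102 and 39847 in LDE225 1 and 2. The means were 45959 ± 3746 (SD, n = 3) and 38974 ± 1234 (SD, n = 2). Both LDE225 sums lay below every vehicle sum. The 13 mt- members summed to 57192, 53044 and 66554 in vehicle and to 65475 and 53835 in LDE225. These ranges overlapped. The ratio of mt- to nuclear sums was 1.37, 1.08 and 1.42 in vehicle and 1.72 and 1.35 in LDE225, and these ranges overlapped as well. In bulk samples, fewer cells of a type and less RNA per cell cannot be told apart.

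No single member passed the test at an adjusted p of 0.05 in limma (13183 genes with a mean of at least 10 normalised counts, Benjamini-Hochberg adjustment over all of them), in which 0.00759% of all genes were called lower and 0.0228% higher in LDE225. The words lower and higher below therefore describe measured values. Of 78 nuclear members tested, 67 had a negative log2 difference (LDE225 minus vehicle, on log2 of the normalised count plus 1), with a median of -0.23 (-0.36 with the nuclear genes scaled to the same total, where the median of all genes was -0.13) and a range of -0.64 to 0.36. Over all genes tested the median was 0.00, with 6541 of 13183 negative. At an unadjusted p under 0.05, limma put 10 nuclear members lower and 0 higher, where 5.71% of all genes were lower and 6.92% higher. edgeR on the recovered reads also called 0 members, against 0% of all genes lower and 0.0152% higher. DESeq2 on those reads called 1 nuclear member lower and 1 mt- member higher, against 1.77% and 2.3% of all genes.

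For 30 of the 78 nuclear members (38.5%), both LDE225 libraries lay below all 3 vehicle libraries, against 15.2% of all genes tested. No nuclear member had both LDE225 libraries above all vehicle libraries, against 16.6% of all genes. Leaving out 1 library at a time means that fewer libraries must be apart. The first count was then 53 of 78 (68.0%) without vehicle 1 and 32 (41.0%) without vehicle 2 or vehicle 3. It was 39 without LDE225 1 and 42 without LDE225 2. Of all genes in the same libraries, 20.1% to 26.6% were so placed. One of the vehicle libraries held the highest value for 72 of the 78 (92.3%, against 62.5% of all genes). That library was vehicle 2 for 39 of them and vehicle 3 for 20. An LDE225 library held the lowest value for 51 (65.4%, against 36.6%), and vehicle 1 for 20.

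**Figure D1:**
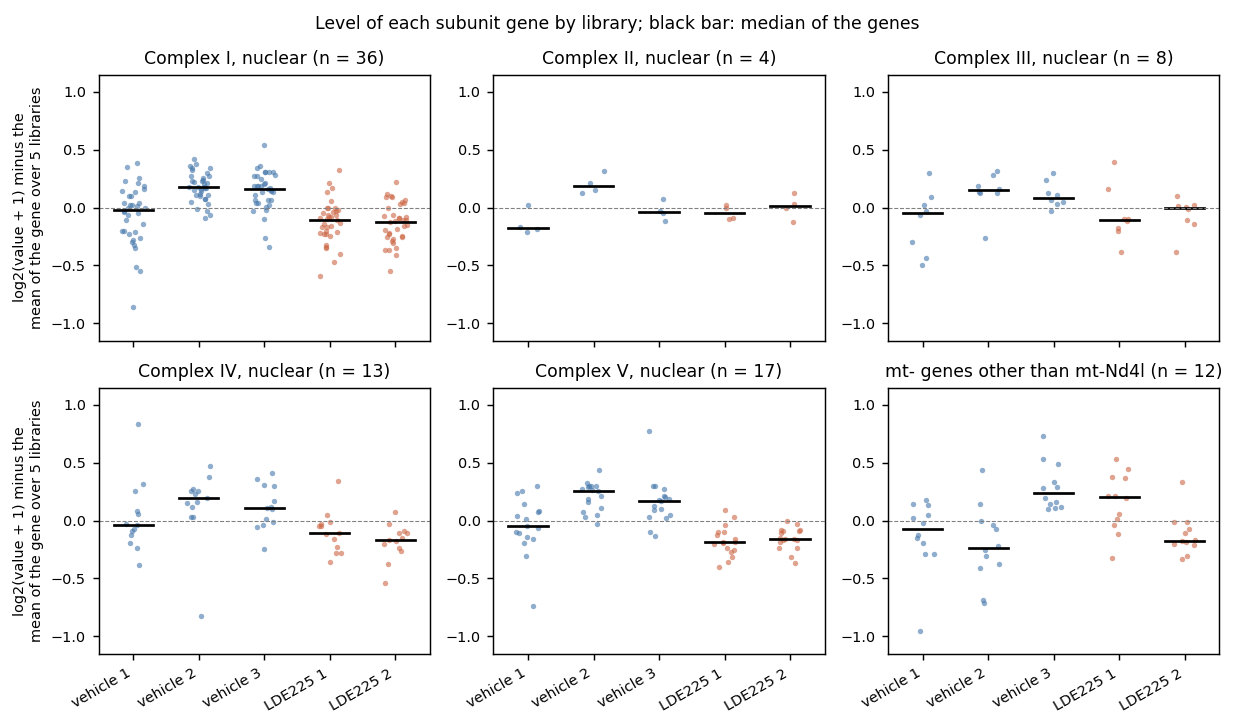
Level of each tested member other than mt-Nd4l (a point) in each of the 5 libraries, as log2(value + 1) minus the mean of the gene over the 5 libraries, with a black bar at the median of the genes, in panels for the nuclear members of complexes I to V and for 12 mt- genes. In sums over the genes, that of complex V was 15010 and 16208 normalised counts in LDE225, below the vehicle range of 17758 to 20905, while that of complex II overlapped.

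Promoters of 3 nuclear members are shown to set the gene with the smallest p beside a member with a small difference and one without any searched motif. They were chosen after their values were seen. Each is 280 bases from RefSeq (GRCm38.p6), from 250 before to 30 after the annotated start, written 5′ to 3′ on the strand of the gene. Capitals mark letters matching the motif of NRF1, an activator of many respiratory genes (GCGCA, then any base, then GCGC), or CCGGAAG, that of ETS factors such as GABP, on either strand. The Cox6a1 window lies at chr5:115348929-115349208, that of Sdha at chr13:74350211-74350490 and that of Atp5g1 at chr11:96075602-96075881, all on the minus strand.
Cox6a1: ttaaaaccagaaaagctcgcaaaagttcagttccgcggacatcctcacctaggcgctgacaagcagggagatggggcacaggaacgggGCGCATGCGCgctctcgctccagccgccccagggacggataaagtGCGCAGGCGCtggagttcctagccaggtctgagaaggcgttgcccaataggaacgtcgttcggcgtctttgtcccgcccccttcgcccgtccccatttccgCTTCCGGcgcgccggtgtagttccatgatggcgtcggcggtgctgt
Sdha: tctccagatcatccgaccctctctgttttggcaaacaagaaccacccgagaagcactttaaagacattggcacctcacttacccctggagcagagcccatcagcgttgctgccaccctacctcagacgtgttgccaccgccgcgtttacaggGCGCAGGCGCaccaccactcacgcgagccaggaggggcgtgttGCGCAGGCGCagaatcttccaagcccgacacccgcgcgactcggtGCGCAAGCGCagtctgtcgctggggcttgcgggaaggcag
Atp5g1: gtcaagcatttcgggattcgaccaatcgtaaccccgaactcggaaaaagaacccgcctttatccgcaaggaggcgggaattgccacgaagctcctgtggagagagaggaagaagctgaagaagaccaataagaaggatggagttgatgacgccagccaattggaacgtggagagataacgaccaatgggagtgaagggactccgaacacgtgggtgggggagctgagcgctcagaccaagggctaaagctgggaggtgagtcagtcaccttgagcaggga
In Cox6a1 the NRF1 letters began 162 and 117 bases before the start and the ETS letters 16 before it. In Sdha the NRF1 letters began 98, 55 and 10 bases before the start. The Atp5g1 window held none of the searched motifs.

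Windows were found for 66 of the 80 nuclear members, giving 71 windows. Cox4i1, Cox4i2, Cox6c, Atp5a1, Atp5mpl, Ndufa2, Ndufb9, Ndufb1-ps, Ndufs1, Sdhc, Uqcrb, Uqcrc2 and Uqcrq were among those with no entry. The NRF1 motif was present in 17 of the 71 windows (23.9%), against 4.41% of all 32851 promoter windows of the same length. CCGGAAG was present in 17 (23.9%, against 8.45%), AANATGGCG, the motif of YY1, in 4 (5.63%, against 1.84%), and AAGGTCA, that of the oestrogen-related receptors, in 6 (8.45%, against 4.46%). At least 1 of these was in 34 windows (47.9%, against 17.3%); both strands were searched and the motifs do not contain one another. The median log2 difference was -0.24 over the 33 tested members with any of the motifs (29 negative) and -0.22 over the 32 without (28 negative). By motif, the medians with and without it were -0.26 and -0.22 for NRF1 (16 and 49 members), -0.16 and -0.23 for CCGGAAG (17 and 48), -0.30 and -0.22 for AANATGGCG (4 and 61) and -0.12 and -0.23 for AAGGTCA (6 and 59). These differences were not tested.

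Complex I takes electrons from NADH and passes them to ubiquinone. Its 36 nuclear members summed to 10474, 12032 and 11810 normalised counts in vehicle and 9767 and 10000.5 in LDE225, so the sums did not overlap. Of the 36, 30 had a negative log2 difference, with a median of -0.22, and 14 (38.9%, against 15.2% of all genes) had both LDE225 values below every vehicle value. The 7 core subunits, which carry the flavin and the iron-sulphur clusters, were all negative with a median of -0.12. The 29 accessory subunits had a median of -0.24, with 23 negative.

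Among the core subunits, Ndufs8, which holds a pair of iron-sulphur clusters near the quinone site (chr19:3908863-3912774, minus strand), stood apart from the other 6. It measured 252, 259 and 274 normalised counts in vehicle and 159 and 186 in LDE225. The means were 262 ± 11.0 (SD, n = 3) and 173 ± 19.0 (SD, n = 2), a log2 difference of -0.60 ± 0.18 (SE, limma adjusted p = 0.260). Both LDE225 values lay well under the lowest vehicle value. Ndufv2, a flavoprotein-arm subunit, was 426, 502 and 550 in vehicle against 383 and 388 (-0.34 ± 0.17, adjusted p = 0.466). Its groups did not overlap either. The other 5 core subunits overlapped between groups. Among them, Ndufv1, which binds NADH, had a log2 difference of -0.12, Ndufs1 of -0.07, Ndufs3 of -0.10 and Ndufs7 of -0.06.

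The lowest log2 difference of any tested nuclear member belonged to the accessory subunit Ndufc1. It measured 140.2, 153 and 139.8 normalised counts in vehicle and 104 and 82.0 in LDE225 (-0.64 ± 0.23, adjusted p = 0.324). Ndufa12, an accessory subunit of the matrix arm that takes the place of an assembly factor late in assembly, was 278, 267 and 293 against 157 and 219.8 (-0.59 ± 0.21, adjusted p = 0.321). Groups were apart for both, but the LDE225 libraries differed from each other, Ndufc1 being lower in LDE225 2 and Ndufa12 lower in LDE225 1. Ndufa2, a small accessory subunit of the matrix arm, measured 389, 459 and 436 against 327 and 328 (-0.38 ± 0.16, adjusted p = 0.386). Here the LDE225 libraries were nearly alike.

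The accessory subunits did not all lie lower. Ndufa1, a membrane-arm subunit encoded on the X chromosome, had the highest log2 difference of any tested nuclear member at 0.36 ± 0.37 (adjusted p = 0.745). Its values were 71.4, 154 and 148 normalised counts in vehicle and 151 and 151 in LDE225. The difference came with 1 low library, vehicle 1, and the other 4 lay close together. Ndufb4 (0.08 ± 0.26) and Ndufa3 (0.04 ± 0.20), also membrane-arm subunits, had overlapping groups.

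Complex II, succinate dehydrogenase, is the enzyme shared by the chain and the citric acid cycle, and it was the complex with the smallest difference. Its 4 members summed to 2688, 3381 and 2944 normalised counts in vehicle and 2950 and 3101 in LDE225, with a median log2 difference of -0.07. No member had separate groups. Sdha, the flavoprotein, measured 1323, 1670 and 1499 in vehicle and 1530 and 1670 in LDE225 (0.10 ± 0.16, adjusted p = 0.842; -0.03 with the nuclear genes scaled to the same total). Sdhb, the iron-sulphur subunit, had a log2 difference of -0.08 ± 0.19, and the membrane anchors Sdhc and Sdhd had -0.09 ± 0.17 and -0.05 ± 0.16. The treatment groups overlapped for each of them. Whether complex II differed from the other complexes was not tested.

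Complex III passes electrons from ubiquinol to cytochrome c. Its 8 nuclear members summed to 3622, 4435 and 4181 normalised counts in vehicle and 3631 and 3836 in LDE225, which overlap at vehicle 1. The median log2 difference was -0.08, with 6 of 8 negative. Uqcrfs1, the Rieske iron-sulphur protein, was among the tightest members: 409, 420.0 and 413 in vehicle against 341 and 347 in LDE225 (-0.27 ± 0.14, adjusted p = 0.516). Its groups were separate with little spread in either. The core protein Uqcrc2 was also separate, at 831, 1023 and 806 against 712 and 763 (-0.26 ± 0.16, adjusted p = 0.575). The other core protein, Uqcrc1, overlapped, at 860.2, 1200 and 1154 against 978 and 1132 (-0.01 ± 0.19). The small subunits Uqcrq (-0.30 ± 0.19), Uqcrb (0.13 ± 0.26) and Uqcr10 (0.00 ± 0.32) overlapped too.

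Complex IV, cytochrome c oxidase, reduces oxygen to water. Ndufa4, named for complex I but a subunit of complex IV, is counted here, and Cox7a2l, which links complexes III and IV into supercomplexes, is included. Its 15 nuclear members summed to 7312, 8438 and 8040 normalised counts in vehicle and 6743 and 6701 in LDE225. Every LDE225 sum was below every vehicle sum, and 12 of 13 tested members were negative with a median log2 difference of -0.20. Both LDE225 values were below every vehicle value for 5 of the 13 (38.5%, against 15.2% of all genes).

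Cox6a1, the widely expressed form of subunit VIa (chr5:115345642-115348981, minus strand), had the smallest p of the nuclear members. It measured 567, 514 and 609 normalised counts in vehicle and 369.6 and 364 in LDE225, with means of 563 ± 47.8 (SD, n = 3) and 367 ± 3.72 (SD, n = 2). The log2 difference was -0.61 ± 0.15 (SE, limma adjusted p = 0.20). LDE225 values lay far below the lowest vehicle library. The call depended on the tool, since DESeq2 gave an adjusted p of 0.0460 and edgeR did not call it; over all the alternatives the adjusted p ran from 0.0460 to 0.862.

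The heme-bearing core of the enzyme is mitochondrially encoded, and Cox5a and Cox5b bind around it. Cox5a measured 422, 398 and 365 normalised counts against 314 and 233 (-0.54 ± 0.19, adjusted p = 0.321). Cox5b measured 333, 418 and 431 against 288 and 304 (-0.40 ± 0.18, adjusted p = 0.431). Both had separate groups. Cox4i1, the main form of subunit IV, measured 1506, 1768 and 1740 against 1321 and 1434 (-0.28 ± 0.14, adjusted p = 0.502), and its groups were separate too. In the annotation Cox4i1 overlaps Gm20388 on the same strand, and Cox5a overlaps Gm26631 on the opposite strand.

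Cox7a2, the widely expressed form of subunit VIIa, was 299, 489.6 and 436 in vehicle against 291 and 293 in LDE225 (-0.45 ± 0.24, adjusted p = 0.501). Its groups were separate by a narrow margin, because vehicle 1 lay close to the LDE225 libraries. The remaining named subunits overlapped, with log2 differences of -0.15 for Cox7b, -0.16 for Cox8a, -0.24 for Ndufa4, -0.10 for Cox6b1 and -0.04 for Cox7a2l.

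Several complex IV subunits have an alternative form made in particular tissues, and these forms were scarce here. Cox4i2, a form of subunit IV known from lung and hypoxic cells, had 7, 7 and 2 recovered reads in vehicle and 0 and 1 in LDE225. Cox7a1, the heart and muscle form of subunit VIIa, had 3, 10 and 0 reads against 1 and 0. Both were under the minimum mean and were not tested. For Cox4i2 both LDE225 values lay below every vehicle value, on these few reads. Per length, Cox4i2 made up 0.614%, 0.397% and 0.140% of Cox4i1 and Cox4i2 together in vehicle and 0% and 0.0615% in LDE225. Cox6b2, the testis form of subunit VIb, made up 9.05%, 3.05% and 4.63% of its pair in vehicle and 6.72% and 5.71% in LDE225. Its log2 difference was 0.20 ± 0.56, with vehicle 1 the highest library.

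Complex V makes ATP by rotary catalysis, and its nuclear members had the lowest median of the complexes. The 17 members summed to 17758, 20905 and 19857 normalised counts in vehicle and 15010 and 16208 in LDE225, without overlap. The median log2 difference was -0.28, with 16 of 17 negative and 9 with both LDE225 values below every vehicle value (52.9%, against 15.2% of all genes). The sign was shared along the enzyme. It was negative for 5 of 5 members of the catalytic F1 head (median -0.30), 3 of 3 genes of the c-ring (-0.24), 4 of 4 of the peripheral stalk (-0.25) and 4 of 5 small membrane subunits (-0.28).

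In the F1 head, Atp5b, the catalytic beta subunit (chr10:128083273-128090391, plus strand), was the most abundant nuclear member. It measured 5742, 6529 and 6317 normalised counts in vehicle and 4124 and 4919 in LDE225, means of 6196 ± 407 (SD, n = 3) and 4521 ± 562 (SD, n = 2). The log2 difference was -0.46 ± 0.17 (adjusted p = 0.334), and the groups were separate. Atp5d, the delta subunit of the central stalk, measured 1040, 874 and 962 against 661 and 753 (-0.44 ± 0.15, adjusted p = 0.307), also without overlap. The alpha subunit Atp5a1 (3998, 5282 and 4713 against 3667 and 4077) had a log2 difference of -0.26 ± 0.18, and the gamma subunit Atp5c1 (613, 726 and 528 against 543 and 516) had -0.22 ± 0.18. Both overlapped through 1 library of each group. Atp5b holds a small nucleolar RNA and a microRNA gene on the same strand, and Atp5d overlaps Cbarp on the opposite strand.

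The membrane c-ring is built from 1 mature protein encoded by 3 genes that differ in their targeting peptides. Atp5g1 (chr11:96068852-96075670, minus strand) measured 553, 501 and 561 normalised counts in vehicle and 384 and 360.1 in LDE225, means of 539 ± 32.6 (SD, n = 3) and 372 ± 16.9 (SD, n = 2). The log2 difference was -0.53 ± 0.15 (adjusted p = 0.230), and every LDE225 value was below every vehicle value. Atp5g2 measured 600.2, 732 and 739.5 against 589.7 and 576 (-0.24 ± 0.16). Atp5g3 measured 687, 1042 and 1047 against 746 and 789 (-0.24 ± 0.22). Atp5g2 was separate by a narrow margin and Atp5g3 overlapped, with vehicle 1 the lowest vehicle library in both. Of the membrane subunits, Atp5md was 282, 393 and 329.6 against 243 and 233 (-0.48 ± 0.20, adjusted p = 0.387), without overlap, while Atp5l overlapped, with a log2 difference of 0.00 ± 0.17.

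**Figure D2:**
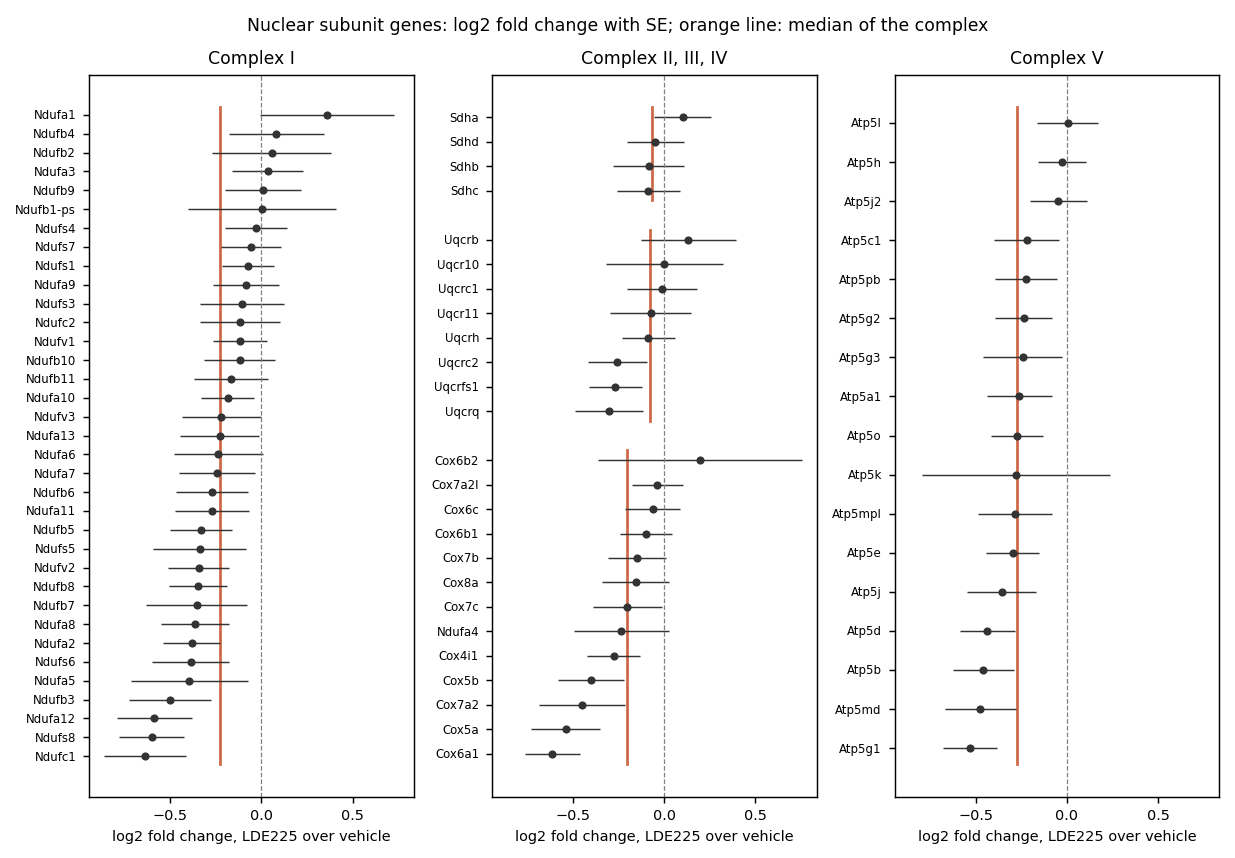
Log2 difference (LDE225 minus vehicle) of 77 of the 78 tested nuclear members (1 is not reported here by name), drawn by complex, with horizontal lines for the standard error from limma (n = 3 and n = 2) and an orange line at the median of the complex. The values run from -0.64 (Ndufc1) to 0.36 (Ndufa1), and most lie below 0.

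The mitochondrial genome encodes 13 proteins as parts of long transcripts from each strand that are cut at the transfer RNAs between them. Of the 13, 5 had a negative log2 difference and the median was 0.06. Both LDE225 values lay below every vehicle value for 2 (15.4%, against 15.2% of all genes). They lay above every vehicle value for 2, where 16.6% of all genes did, so both counts were near the share of all genes. All 13 had their highest value in vehicle 3 (7 genes) or LDE225 1 (6 genes). The mt- genes took 0.592%, 0.491% and 0.613% of the normalised counts in vehicle and 0.596% and 0.452% in LDE225. The median changed sign when single libraries were left out, from -0.13 without LDE225 1 to 0.23 without LDE225 2, and it was -0.08 with the nuclear genes scaled to the same total, -0.06 with quantile normalisation and -0.04 with array weights.

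Within complex IV, 1 of the 3 mitochondrial subunits had separate groups. mt-Co2, the copper-binding subunit that receives electrons from cytochrome c (chrM:7013-7696), measured 3409, 3422 and 3448 normalised counts in vehicle and 2848 and 2452 in LDE225. The means were 3426 ± 20.1 (SD, n = 3) and 2650 ± 280.0 (SD, n = 2), a log2 difference of -0.37 ± 0.14 (adjusted p = 0.360). The 3 vehicle values were nearly equal and both LDE225 values lay below them. mt-Co1, the catalytic subunit, was 27564, 26668 and 30987 against 29058 and 25928 (-0.05 ± 0.25). mt-Co3 was 8415, 6203 and 8223 against 9953 and 6192 (0.06 ± 0.26). Both overlapped. The ratio of mt-Co2 to mt-Co1 within a library was 0.124, 0.128 and 0.111 in vehicle and 0.0980 and 0.0946 in LDE225, without overlap. It uses the same mt-Co2 values, so it is not a separate result.

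The 7 mitochondrial complex I subunits form much of the proton-pumping membrane arm. mt-Nd2 (chrM:3914-4951) measured 725, 549 and 958 normalised counts in vehicle and 1281 and 1117 in LDE225, means of 744 ± 205 (SD, n = 3) and 1199 ± 116 (SD, n = 2). The log2 difference was 0.72 ± 0.24 (adjusted p = 0.304). Both LDE225 values lay above every vehicle value. Its neighbour mt-Nd1 overlapped, at 2172, 2083 and 3132 against 2846 and 2358 (0.10 ± 0.22). The ratio of mt-Nd2 to mt-Nd1 was 0.334, 0.264 and 0.306 in vehicle and 0.450 and 0.474 in LDE225, without overlap. It uses the same mt-Nd2 values and is likewise not a separate result.

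mt-Nd4l, a small membrane-arm subunit (chrM:9877-10173), was listed at 0 in all 3 vehicle libraries and at 61.1 and 49.9 normalised counts in LDE225, from 76 and 59 recovered reads. With a floor of 3 reads per vehicle library, the LDE225 mean (55.5) was 16.3-fold the mean floor (3.41 normalised counts). limma with a mean trend did not call it (adjusted p = 0.161), whereas limma without the trend (adjusted p = 0.00580) and DESeq2 did. It shares 7 bases with mt-Nd4 and lies on the same transcript. mt-Nd4 was far from 0 in every library, at 2456, 1827 and 2882 in vehicle and 2737 and 2105 in LDE225 (0.03 ± 0.23). How the counting divided reads between these genes is not given in the labels.

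The other mt- genes overlapped between groups, except mt-Atp8. mt-Nd3 measured 494, 267 and 535 normalised counts against 595 and 377 (0.20 ± 0.35), and mt-Nd5 measured 2870, 2681 and 4534 against 3154 and 2719 (-0.16 ± 0.25). mt-Nd6, the 1 protein gene read from the other strand, was scarce at 17.8, 48.3 and 59.4 against 34.5 and 31.3 (-0.18 ± 0.58), and it shares 14 bases with mt-Nd5. mt-Cytb, the heme-bearing subunit of complex III, was 4205, 3510 and 5353 against 6037 and 4636 (0.30 ± 0.23). In complex V, the proton channel subunit mt-Atp6 was 4843, 5765 and 6412 against 6852 and 5851 (0.17 ± 0.19). mt-Atp8 was 21.7, 21.2 and 30.3 against 16.9 and 18.6 (-0.42 ± 0.50), apart but low, and it shares 43 bases with mt-Atp6.

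Levels differed widely among these genes when divided by length. In normalised counts per kilobase of the longest transcript, the vehicle means were 18386 for mt-Co1, 9711 for mt-Co3, 8331 for mt-Atp6 and 5009 for mt-Co2. Atp5b, at 3234 per kilobase, and Cox4i1, at 2185, stood nearest to them among the nuclear members named here. mt-Nd6 had 80.6 per kilobase, below every other mt- gene except mt-Nd4l, which was listed at 0. The LDE225 means ran in the same order for mt-Co1, mt-Co3, mt-Atp6 and mt-Nd6, at 17795, 10297, 9327 and 63.4 per kilobase.

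**Figure D3:**
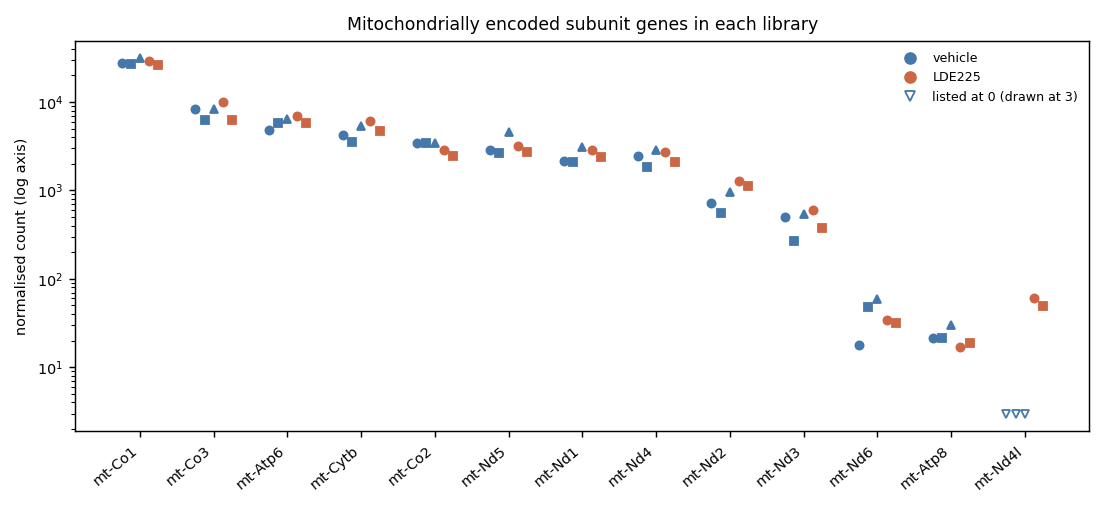
Normalised count of each of the 13 mt- genes in each library on a log axis, with circles, squares and triangles for replicates 1, 2 and 3 of each group, and values listed at 0 drawn as open symbols at 3. mt-Co2 and mt-Atp8 lay lower and mt-Nd2 and mt-Nd4l higher in both LDE225 libraries than in every vehicle library, and the other 9 genes overlapped. Of all genes tested, 15.2% were separate and lower and 16.6% separate and higher, so these counts are near those shares.

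Genes that build or feed the chain were set beside the members. The assembly factors of complexes I to V, which are not part of the finished enzymes, were negative in 25 of 53, with a median log2 difference of 0.05 and a range of -1.29 to 0.47. Of the 53, 5 (9.43%) had both LDE225 values below every vehicle value, against 15.2% of all genes. Components outside the symbol pattern were negative in 18 of 23, with a median of -0.22, and 5 (21.7%) had both LDE225 values below every vehicle value. Differences between lists were not tested. They include Cyc1, cytochrome c1 of complex III (-0.43 ± 0.30), and Ndufab1, the acyl carrier protein of complex I (-0.19 ± 0.22). Sqor, which passes electrons from sulphide to ubiquinone, went the other way, at 259, 196 and 254 normalised counts in vehicle and 387 and 463 in LDE225 (0.85 ± 0.20, adjusted p = 0.186). Its groups did not overlap. Coq7, a hydroxylase of ubiquinone synthesis, had a log2 difference of -0.73 ± 0.34.

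Among 19 citric acid cycle enzymes, 13 were negative with a median of -0.04. The malate dehydrogenase Mdh2 measured 1596, 1700.4 and 1669 normalised counts against 1044 and 1183 (-0.57 ± 0.14, adjusted p = 0.188), and Idh2 had a log2 difference of -0.36 ± 0.15. Mitochondrial import genes were negative in 16 of 20 (median -0.18), including the import channel Tomm40 (-0.45 ± 0.15). Mitochondrial ribosomal proteins were negative in 58 of 78 (median -0.18, 22 or 28.2% with both LDE225 values below every vehicle value). The smallest p among them belonged to Mrpl52 (-0.94 ± 0.19, adjusted p = 0.145) and Mrpl17 (-0.45 ± 0.15). Genes for mitochondrial DNA upkeep and transcription were evenly divided, with 10 of 20 negative and a median of 0.02. Tfam, the packaging factor of mitochondrial DNA, had -0.03 ± 0.22, and the nuclease Mgme1 had 0.75 ± 0.30. Mitochondrial RNA processing genes were negative in 15 of 20 (median -0.16).

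Regulators of respiratory genes were negative in 8 of 14 (median -0.04). Nrf1 (-0.05 ± 0.18), Gabpa (-0.07 ± 0.14) and Esrra (-0.24 ± 0.25), whose proteins bind the motifs searched above, overlapped between groups. Epas1, the hypoxia-inducible factor HIF-2 alpha, measured 901, 1168 and 1374 normalised counts in vehicle and 3592 and 2587 in LDE225 (1.43 ± 0.23, adjusted p = 0.116). Its LDE225 values were far above vehicle. Hif1a measured 2045, 2775 and 3536 in vehicle and 4321 and 3709 in LDE225 (0.56 ± 0.25, adjusted p = 0.418), also without overlap. Genes linked to hypoxia-inducible factors were negative in 8 of 9 (median -0.44), among them Pdk1, which restrains pyruvate entry (-0.96 ± 0.34), and Ldha, which makes lactate (-0.62 ± 0.20). Of the 9, 4 (44.4%, against 15.2% of all genes) had both LDE225 values below every vehicle value. Their mean centred log2 level was highest in vehicle 2 (0.57), while vehicle 3 (-0.12) lay near LDE225 2 (-0.13). No gene of the lists in this and the preceding paragraphs passed the threshold in limma or edgeR. DESeq2 called 1 of 19 citric acid cycle enzymes and 1 of 78 mitochondrial ribosomal proteins lower, where 1.77% of all genes were. It called 1 of 14 regulators and 1 of 23 components outside the symbol pattern higher, where 2.3% of all genes were.

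The cytosolic ribosomal proteins, a group of short and abundant transcripts outside the mitochondrion, lay lower as well. Of 72, 71 were negative, with a median log2 difference of -0.29, and 53 (73.6%, against 15.2% of all genes) had both LDE225 values below every vehicle value. Rpl36 (-0.61 ± 0.17) and Rpl24 (-0.45 ± 0.14) had the smallest p. Nuclear members had a median longest transcript of 875 bases, against 3199 for the other genes. Among genes with transcripts under 1000 bases, 44 nuclear members had a median of -0.24 with 17 separate and lower, beside a median of -0.14 over 558 other genes, of which 28.7% were separate and lower. From 1000 to 2000 bases, 24 members had a median of -0.22, beside -0.08 over 2415 other genes, and all 24 were negative. The part of transcript length in the result was not tested further.

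**Figure D4:**
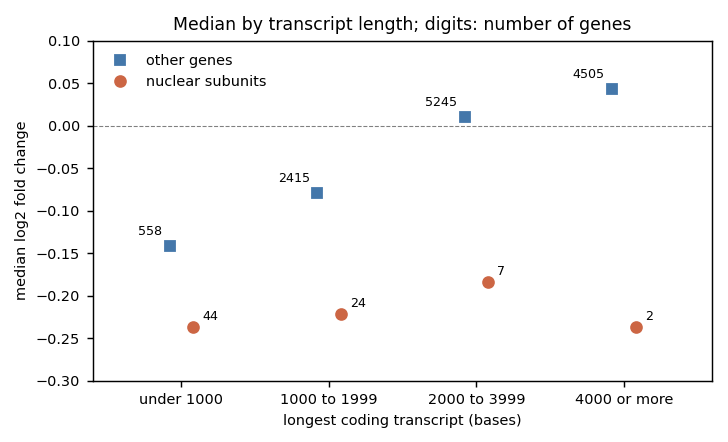
Median log2 difference (LDE225 minus vehicle) of the nuclear members (circles) and of the other tested genes (squares) in 4 classes of longest coding transcript length in bases, with the number of genes beside each point. In the shortest class, under 1000 bases, the median was -0.24 for 44 nuclear members and -0.14 for 558 other genes.

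Markers of cell state and of other cells also moved between the groups. All 12 proliferation markers (100%, against 15.2% of all genes) were lower in both LDE225 libraries than in every vehicle library. Their median was -1.39, with sums of 3447 to 4072 normalised counts in vehicle and 1303 to 1553 in LDE225. Mki67, the Ki-67 antigen, had a log2 difference of -1.41 ± 0.16 (adjusted p = 0.0731). Carcinoma epithelium markers were negative in 10 of 12 (median -0.78), with sums of 7779 to 7858 in vehicle and 6694 and 2726 in LDE225. Mesothelial markers were negative in 6 of 6 (median -1.20), with sums of 11128, 4180 and 5056 in vehicle and 3859 and 3668 in LDE225, so that vehicle 1 alone was far above the rest. Pericyte and smooth muscle markers were negative in 8 of 10 (median -0.83), with overlapping sums of 3654 to 7411 and 2643 to 5261. Pan-fibroblast markers were positive in 9 of 10 (median 0.41), with Thy1 negative (-1.05 ± 0.42) and overlapping sums. Their mean centred log2 level was -0.51, -0.01 and -0.01 in vehicle and 0.22 and 0.31 in LDE225. Immediate-early genes, which tissue dissociation can induce, were positive in 15 of 20 (median 0.38). Their level was 0.07, -0.62 and 0.13 in vehicle and 0.14 and 0.29 in LDE225, so that vehicle 2 alone was far below the rest. DESeq2 called 10 of 12 proliferation, 4 of 12 carcinoma, 2 of 6 mesothelial and 1 of 10 pericyte markers lower, against 1.77% of all genes. It called 1 of 10 pan-fibroblast markers higher, against 2.3% of all genes. limma and edgeR called 0 of these markers. The part of these cells and states in the lower values of the nuclear members was not tested.

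Of the other cell types, macrophage markers were negative in 5 of 10 (median -0.10), blood endothelial markers in 5 of 8 (median -0.02), and acinar markers in 5 of 8 tested (median -0.36). Lymphatic endothelial markers were positive in 5 of 6 tested (median 0.85). The sums of these 4 lists overlapped between groups. Lymphocyte, striated muscle and adipocyte lists had 1 tested gene each.

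**Figure D5:**
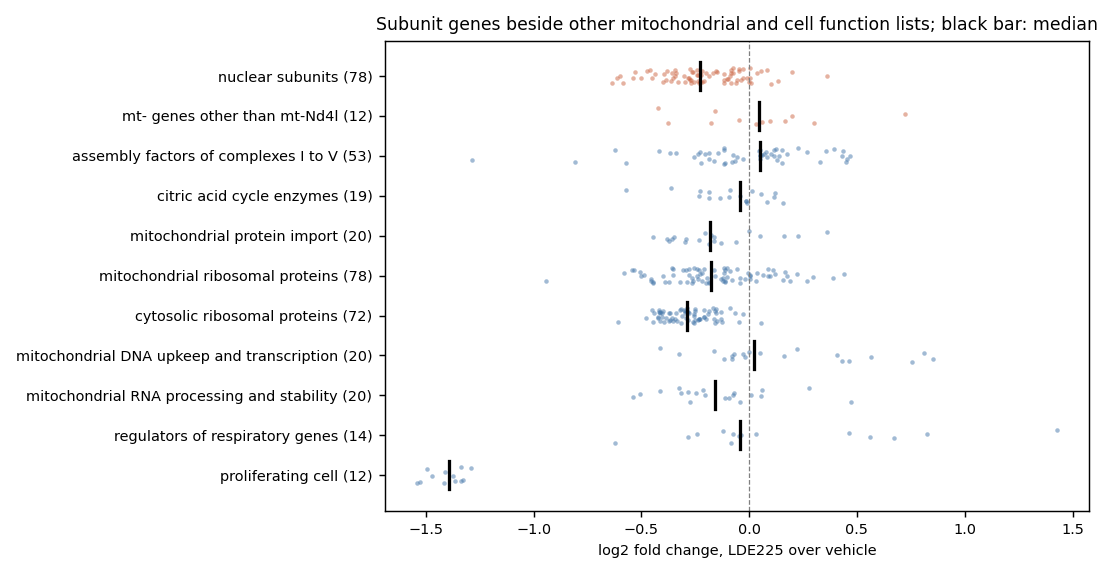
Log2 difference (LDE225 minus vehicle) of each tested gene (a point) in the nuclear members, 12 mt- genes and 9 comparison lists, with a black bar at the median of each list and the number of genes in brackets. The medians were -0.23 for nuclear members, -0.29 for cytosolic ribosomal proteins, 0.05 for assembly factors and -1.39 for proliferation markers.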

How the data were processed

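Gene expression was measured by RNA sequencing in sorted cells, with 3 vehicle and 2 LDE225 libraries by their treatment labels. Each deposited value is a signal for 1 gene, a DESeq2-normalised read count that the authors neither log-transformed nor scaled for length. The build GRCm38 and the tools DESeq2 1.22.2, RSEM 1.2.29 and STAR 2.7.3 are named per the submitters' processing notes, with no role or order given. The values were whole multiples of 1 read for 100% of entries within 0.001 reads, which gave whole reads and depth; 3 columns without a header were not used, and 23 symbols altered by a spreadsheet were restored. Depth in recovered reads limits precision most for the rare members.

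The test was limma 3.58.1 (R 4.3.3) with a trend of variance on mean level, applied to log2(value + 1) of the 13183 genes whose mean reached 10; p-values were two-sided and adjusted by the Benjamini-Hochberg method, with a threshold of 0.05. Differences on that scale understate changes of low genes. An exact two-sided rank test of 3 against 2 libraries cannot go below p = 0.2. edgeR 4.0.16 (quasi-likelihood) and DESeq2 1.42.0 were run on the recovered reads as alternatives, with other pseudocounts, filters, scalings, variance models and left-out libraries. The script was tested on simulated data. Coordinates and lengths come from GENCODE M21 (GRCm38). Named genes were every mt- member, the core subunits, paralogues, members under the minimum mean, up to 3 members per complex with the smallest p in each direction and up to 2 genes per list; Ndufa2, Atp5md, Cox5b, Tfam, Cyc1, Ndufab1, Nrf1, Gabpa and Esrra were added for their role or after their values were seen, and 1 core subunit is not reported here by name. The members and lists were chosen with earlier results of these data known.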

Additional observations from a re-analysis of the deposited data

How the results depend on the processing

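Over 18 alternatives, the median of the nuclear members stayed negative in each, and their number of negative differences ran from 63 to 76 of 78 (69 of 80 without a filter and 66 of 75 with a mean of at least 50). Not all of these could differ. limma without the mean trend and robust empirical Bayes change only variances, so the log2 differences could not move there. The replicate block gave the same nuclear median as leaving out vehicle 3, which had no LDE225 library of its number. These settings also enter the 950 values below. Scaling the nuclear genes to the same total moved the median of all genes by -0.13 and that of the nuclear members to -0.36, which left them -0.23 from all genes. Leaving out 1 library at a time gave nuclear medians of -0.28 to -0.15 and 32 to 53 members below every vehicle library (41.0% to 68.0%), where 20.1% to 26.6% of all genes were, since fewer libraries must then be apart. The count of members called higher was 1 in limma without the mean trend and 1 in DESeq2 (mt-Nd4l), and 1 was called lower in DESeq2 (Cox6a1); the cause was not tested. Of 950 values of 53 named members, 58 changed sign, in 21 members. With the same total the log2 differences were -0.00032 for Uqcrb, -0.032 for Sdha, -0.052 for Ndufb4, -0.098 for Ndufa3, -0.129 for Atp5l, -0.132 for Uqcr10, -0.035 for mt-Nd1, -0.076 for mt-Co3 and -0.102 for mt-Nd4. Quantile normalisation gave -0.015 for Atp5l, -0.116 for mt-Co3 and -0.059 for mt-Nd4, and the upper quartile -0.024 for Atp5l and -0.027 for Uqcr10. Array weights gave -0.038 for Ndufa3, -0.032 for Atp5l, -0.154 for Uqcr10, -0.037 for mt-Nd1 and -0.048 for mt-Nd4, and DESeq2 -0.0013 for Atp5l. The replicate block gave -0.073 for Ndufb4, 0.0499 for Uqcrc1, 0.018 for mt-Co1, 0.078 for mt-Nd5 and 0.153 for mt-Nd6, a nuclear median of -0.18 with 66 of 78 negative, and no calls. The numbers 1 and 2 name replicates in both groups, but the sample titles give no pairing beyond them, so they were not taken as pairs. The deviations of the same-numbered libraries correlated at 0.132 and -0.0174. With 2 LDE225 libraries the deviations of the 1 mirror those of the other, so these correlations cannot decide on pairing. With 1 library left out at a time, the log2 differences that changed sign ran over these ranges: Sdhd -0.119 to 0.0183, Sdhb -0.187 to 0.0573, Ndufs7 -0.183 to 0.0658, Uqcrb -0.0909 to 0.298, Ndufb4 -0.0731 to 0.163, Cox7a2l -0.132 to 0.0590, Uqcrc1 -0.162 to 0.0941, Ndufa3 -0.0900 to 0.147, Cox6b1 -0.209 to 0.00782, Atp5l -0.0900 to 0.0942, Cox6b2 -0.178 to 0.655, Sdhc -0.196 to 0.00396, Uqcr10 -0.387 to 0.390, mt-Nd1 -0.0371 to 0.285, mt-Co1 -0.129 to 0.0357, mt-Co3 -0.285 to 0.40, mt-Nd3 -0.132 to 0.526, mt-Nd4 -0.157 to 0.222, mt-Nd5 -0.301 to 0.0784, mt-Nd6 -0.688 to 0.153. Depth limits the low members most, Cox4i2, Cox7a1, mt-Atp8 and mt-Nd6 among them.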
